A study of Mus musculus with 4 samples.

Results

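Marker genes of liver macrophages, 10 in all, were followed in bulk mRNA-seq of mouse liver: Clec4f, Timd4, Vsig4, Cd5l and Marco, which mark resident Kupffer cells, Adgre1 and Lyz2, which mark macrophages in general, and Trem2, Gpnmb and Cd9, which mark lipid-associated macrophages. The genes were chosen by name, and all 10 were found, each in 1 row, among the 13903 genes of the deposited table. Every mouse was OGT-Floxed, of the C57BL/6J background, and had eaten a CDE diet. CDE is the usual short name of a choline-deficient diet supplemented with ethionine, used to injure the liver. The OGT-KO label stands for the virus AAV8-TBG-CRE and the control label for AAV8-TBG-eGFP, and liver was sampled either without recovery from the diet or 7 days into recovery. For each of these 4 groups the RNA of 3 mice was pooled in equal parts and sequenced as 1 library, which leaves every value without a replicate error, and the intervals given are 95% intervals of counting error only. No group without the diet was compared, and the age and sex of the mice and the length of the diet are not given in the sources used here. The TBG promoter drives Cre recombinase in hepatocytes, so the macrophages of all groups are taken to carry the floxed gene unrecombined.

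Kupffer cells are the macrophages that live inside the sinusoids of the liver, where they take up particles, bacteria and dying red cells from the blood. They are maintained by self-renewal in the healthy liver. When the liver is injured some are lost, and monocytes from the blood enter and become macrophages that can, with time, take on Kupffer cell genes, of which Timd4 is known as one of the last to appear. Macrophages that carry Trem2, Gpnmb and Cd9 are called lipid-associated macrophages and gather in fatty and scarred liver tissue.

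The library labels were first checked with Ogt, which encodes O-GlcNAc transferase and lies on chrX:101640060-101684351 on the plus strand (positions are from GENCODE M21 on GRCm38 throughout). Ogt was at 64.7 CPM (reads per 1000000 reads of the library) in the control and 55.3 CPM in the OGT-KO library with no recovery, and at 55.7 CPM in the control and 77.7 CPM in the OGT-KO library after 7 days. The log2 fold change, on the log2(CPM + 1) scale used for every log2 fold change, was -0.22 at the earlier time and 0.47 at the later one, where the value goes against the label. Nonhepatocyte cells keep the gene, and the whole-gene value does not resolve the deleted exons, but the part of either in these Ogt values was not tested. The groups are therefore named by their labels only, and OGT-KO library means the one labelled OGT-KO. The libraries held 19972699 to 22866431 reads on the listed genes. The median gene averaging at least 10 CPM was higher in the OGT-KO library by 0.51 on the log2 scale with no recovery and by 0.48 after 7 days, and under a median-ratio scaling of the libraries it was at -0.19 and -0.18. Hepatocyte markers (Alb, Apoa2, Apob, Ttr, Serpina1a and Cyp2e1) summed to 71777 CPM in the control and 50640 CPM in the OGT-KO library with no recovery, and to 78054 CPM and 62376 CPM after 7 days. A marker is thus counted against a total in which these hepatocyte markers took a smaller share, and the part this had in the marker values was not tested.

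The upstream sequences of 4 members are shown because Marco had the largest contrast of the resident group, Trem2 and Gpnmb had the largest of the lipid-associated group with no recovery, and Cd5l had the highest resident level per kilobase of transcript. Each is the 250 bases before the gene start in RefSeq on GRCm38.p6, read on the strand of the gene, and 9 of the 10 members had an entry, Adgre1 being the one without. Capitals mark GAGGAAG or its reverse complement CTTCCTC, letters that the macrophage factor PU.1 (Spi1) is known to bind.
Cd5l, chr3:87357631-87357880, plus strand: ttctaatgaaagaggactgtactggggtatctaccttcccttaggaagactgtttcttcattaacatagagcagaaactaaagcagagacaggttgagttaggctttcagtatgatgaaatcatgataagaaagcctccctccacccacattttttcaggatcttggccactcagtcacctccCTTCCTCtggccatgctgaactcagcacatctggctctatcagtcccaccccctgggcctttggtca
Marco, chr1:120505025-120505274, minus strand: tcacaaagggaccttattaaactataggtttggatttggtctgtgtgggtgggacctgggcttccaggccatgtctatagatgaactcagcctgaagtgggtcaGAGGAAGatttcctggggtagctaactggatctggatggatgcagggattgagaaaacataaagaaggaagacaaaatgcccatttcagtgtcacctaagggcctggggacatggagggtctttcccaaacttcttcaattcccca
Trem2, chr17:48346151-48346400, plus strand: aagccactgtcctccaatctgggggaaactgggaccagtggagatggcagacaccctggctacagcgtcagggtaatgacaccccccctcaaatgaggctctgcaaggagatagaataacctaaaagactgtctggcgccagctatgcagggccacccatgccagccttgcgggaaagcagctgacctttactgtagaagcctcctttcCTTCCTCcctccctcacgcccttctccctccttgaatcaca
Gpnmb, chr6:49036268-49036517, plus strand: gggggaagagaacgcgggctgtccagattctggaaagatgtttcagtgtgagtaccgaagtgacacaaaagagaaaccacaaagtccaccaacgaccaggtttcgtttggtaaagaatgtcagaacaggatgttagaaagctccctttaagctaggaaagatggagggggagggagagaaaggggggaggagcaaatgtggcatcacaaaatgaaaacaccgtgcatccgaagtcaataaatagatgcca
The PU.1 letters began at position -67 of Cd5l, -146 of Marco and -41 of Trem2, and they were in none of the other 6 windows. Among all 32851 windows of this length, 10.6% held them on either strand. On either strand again, CACGTG, an E-box that the lysosomal factors Tfeb and Tfe3 are known to bind, was in 6.02% of windows, and TCATGTG, an M-box of the related factor Mitf, was in 3.25%. Neither was in any member's window. A match is a description of the letters and is no evidence of binding.

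The first question was how the resident Kupffer cell markers differed between the genotypes. With no recovery, 4 of the 5 were at least 2-fold higher in the OGT-KO library, and after 7 days the same 4 were. Timd4 was the one below that threshold at both times. The background for these counts is that 33.1% of all 13903 genes were at least 2-fold higher with no recovery and 32.3% after 7 days, and of the 8963 genes averaging at least 10 CPM 24.4% and 22.9%. At least 2-fold lower were 5.69% and 4.27% of the latter and none of the resident markers. Fewer cells of a type and less RNA per cell cannot be told apart in bulk RNA, and this holds for every marker.

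Clec4f, a lectin receptor made by Kupffer cells and hardly any other cell (chr6:83644542-83656187, minus strand), was at 77.1 CPM in the control and 180 CPM in the OGT-KO library with no recovery, and at 28.2 CPM and 120 CPM after 7 days. Both OGT-KO libraries were above both control libraries. For this and the other members, the share of all genes without such overlap between the labels is not given here. The ratio of OGT-KO to control was 2.34 (2.21 to 2.48) with no recovery, then 4.26 (3.89 to 4.67) after 7 days.

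Vsig4, a complement receptor that captures opsonised bacteria (chrX:96247203-96293438, minus strand), was at 16.2 CPM in the control and 54.0 CPM in the OGT-KO library with no recovery, and at 6.21 CPM and 37.8 CPM after 7 days. It was higher in the OGT-KO library by 3.34 times (2.96 to 3.77) and then 6.10 times (5.04 to 7.42), with no overlap between the labels.

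Cd5l, a secreted scavenger protein of tissue macrophages (chr3:87357881-87371073, plus strand), was at 73.3 CPM in the control and 247 CPM in the OGT-KO library with no recovery, and at 25.6 CPM and 133 CPM after 7 days. These are ratios of 3.36 (3.18 to 3.56) and 5.21 (4.74 to 5.73), and again the labels did not overlap.

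Marco, a class A scavenger receptor for bacteria and particles (chr1:120474538-120505024, minus strand), stood apart from the other resident markers. It was at 11.1 CPM in the control and 119 CPM in the OGT-KO library with no recovery, and at 3.50 CPM and 68.3 CPM after 7 days. Its ratio of 10.7 (9.40 to 12.3) with no recovery and of 19.5 (15.3 to 25.1) after 7 days was above the counting intervals of the other 4 resident markers at the same time.

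Timd4, a receptor for phosphatidylserine on dying cells and a mark of long-resident Kupffer cells (chr11:46810800-46844332, plus strand), differed least. It was at 5.64 CPM in the control and 9.84 CPM in the OGT-KO library with no recovery, and at 1.90 CPM and 4.79 CPM after 7 days. The OGT-KO library after 7 days was below the control library with no recovery, so the labels overlapped. The ratio was 1.74 (1.39 to 2.19) with no recovery, then 2.52 (1.72 to 3.74) after 7 days, beyond counting error at both times. On the log2(CPM + 1) scale its change after 7 days, 1.0 when rounded, was just short of the 2-fold threshold. Clec4f at 1.21 with no recovery was the genotype value nearest above it. Timd4 was also the 1 member whose mean over the libraries, 5.54 CPM, was under 10 CPM, so the remaining 9 members passed that minimum.

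**Figure D1:**
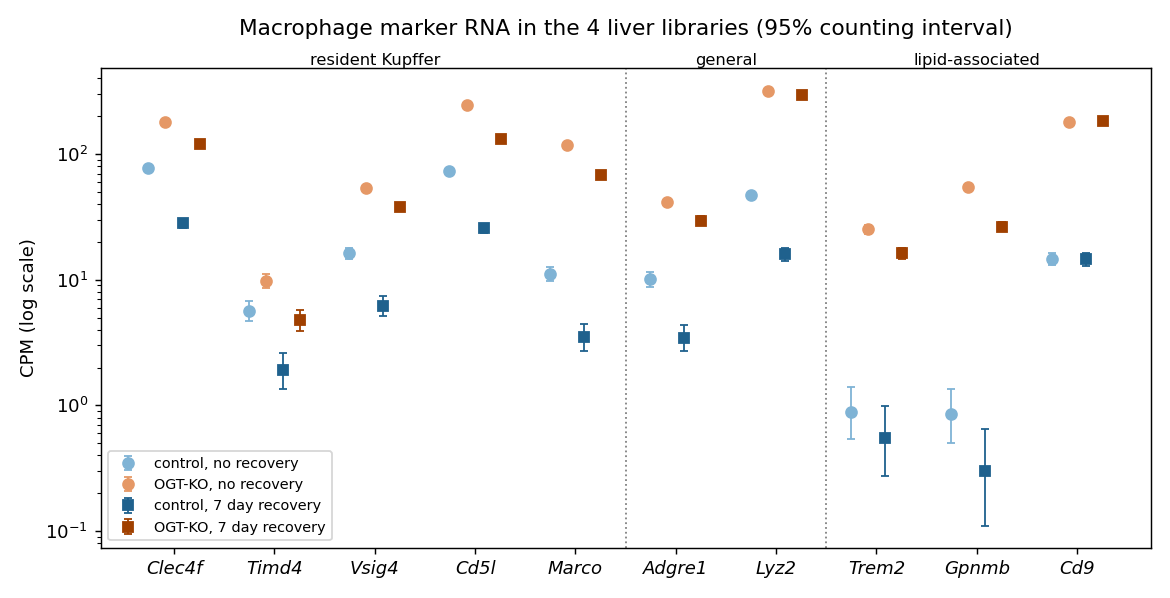
CPM of the 10 marker genes (log axis) in the 4 libraries, with circles for no recovery, squares for 7 days of recovery, blue for control and orange to brown for OGT-KO, and bars for the 95% counting interval. For every gene but Timd4 both OGT-KO libraries lie above both control libraries, and the gap is widest for Gpnmb, at 54.8 CPM against 0.847 CPM with no recovery. The share of all genes without overlap between the labels is not given. The median gene averaging at least 10 CPM was also higher in the OGT-KO library, by 0.51 and 0.48 on the log2 scale.

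Both general macrophage markers were higher in the OGT-KO libraries. Adgre1, which encodes the surface receptor F4/80 (chr17:57358691-57483527, plus strand), was at 10.1 CPM in the control and 41.2 CPM in the OGT-KO library with no recovery, and at 3.45 CPM and 29.6 CPM after 7 days. The ratio was 4.09 (3.52 to 4.77) and then 8.58 (6.69 to 11.2). Lyz2, the lysozyme of macrophages, monocytes and neutrophils (chr10:117277331-117282321, minus strand), was at 47.1 CPM in the control and 319 CPM in the OGT-KO library with no recovery, and at 15.9 CPM and 293 CPM after 7 days. Its ratio was 6.78 (6.34 to 7.25) with no recovery, then 18.4 (16.4 to 20.6) after 7 days. No label overlapped for either gene. Lyz2 has a near copy beside it, Lyz1, which was at 1.51 CPM in the control and 7.22 CPM in the OGT-KO library with no recovery and at 0.451 CPM and 6.69 CPM after 7 days, and how reads on both copies were shared out is not given in the sources used here. Neutrophil markers were also higher in the OGT-KO library at both times. The 4 of 6 that were listed (S100a8, S100a9, Cxcr2 and Csf3r) summed to 5.50 CPM in the control and 29.4 CPM in the OGT-KO library with no recovery, and to 2.20 CPM and 44.8 CPM after 7 days, with none at 0. In the OGT-KO libraries they thus summed higher after 7 days, whereas Lyz2 was lower. Their part in the Lyz2 values was not tested.

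With no recovery the 3 lipid-associated markers had the largest contrasts of the 10 genes. After 7 days Gpnmb still did, but Lyz2 at 4.12 and Marco at 3.94 on the log2(CPM + 1) scale were above Cd9 at 3.57 and Trem2 at 3.47. That scale understates the change of low genes such as Trem2. As a ratio of CPM, Trem2 at 29.4 was above Marco at 19.5, Lyz2 at 18.4 and Cd9 at 12.6 after 7 days. Trem2, a lipid-sensing receptor of macrophages (chr17:48346401-48354147, plus strand), was at 0.894 CPM (19 reads) in the control and 25.2 CPM in the OGT-KO library with no recovery, and at 0.551 CPM (11 reads) and 16.2 CPM after 7 days. The ratio was 28.2 (17.9 to 47.2) with no recovery, then 29.4 (16.2 to 59.4) after 7 days.

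Gpnmb, a membrane glycoprotein of phagocytes under lysosomal load (chr6:49036546-49070929, plus strand), was at 0.847 CPM (18 reads) in the control and 54.8 CPM in the OGT-KO library with no recovery, and at 0.300 CPM (6 reads) and 26.5 CPM after 7 days. The ratio was 64.7 (40.7 to 109) and then 88.2 (40.3 to 241), the highest of the 10 markers at both times. With so few control reads the ratio is known only within these wide limits. Trem2 and Gpnmb had a mean of at least 10 CPM only through the OGT-KO libraries.

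Cd9, a tetraspanin (chr6:125460266-125494791, minus strand), was at 14.5 CPM in both control libraries, at 179 CPM in the OGT-KO library with no recovery and at 184 CPM in the one after 7 days. It was 12.3 times higher (11.0 to 13.9) with no recovery and 12.6 times higher (11.2 to 14.3) after 7 days. Cd9 is not confined to macrophages, since bile duct, endothelial and other cells make it too. Bile duct and progenitor markers (Krt19, Krt7, Epcam, Sox9, Cldn4 and Cldn7) moved with it: all 6 were at least 2-fold higher in the OGT-KO library at both times, none was at 0, and their sum was 13.2 CPM in the control and 209 CPM in the OGT-KO library with no recovery and 18.9 CPM and 263 CPM after 7 days. The part of these cells in the Cd9 values was not tested.

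Over all 10 markers, 9 were at least 2-fold higher in the OGT-KO library at each time, the same 9, and none was at least 2-fold lower. Of all listed genes, 26.9% were at least 2-fold higher at both times, and of those averaging at least 10 CPM 19.2% were. The median log2 fold change of the resident markers was 1.68 with no recovery and 2.34 after 7 days. For the general and lipid-associated markers together it was 3.53 and 3.57, beside 0.51 and 0.48 for all genes averaging at least 10 CPM. The groups overlapped, because Marco, at 3.31 and 3.94, was above Adgre1, at 1.93 and 2.78. Scaling by the median ratio left every marker above 0, with the resident markers from 0.07 (Timd4) to 2.62 (Marco) with no recovery and from 0.49 to 3.34 after 7 days. Under that scaling Clec4f with no recovery was at 0.50 and Vsig4 at 0.98, so both were then under 2-fold, and the share of called genes that were higher was 40.4% with no recovery and 49.6% after 7 days, beside 81.1% and 84.3% with the deposited scaling.

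**Figure D2:**
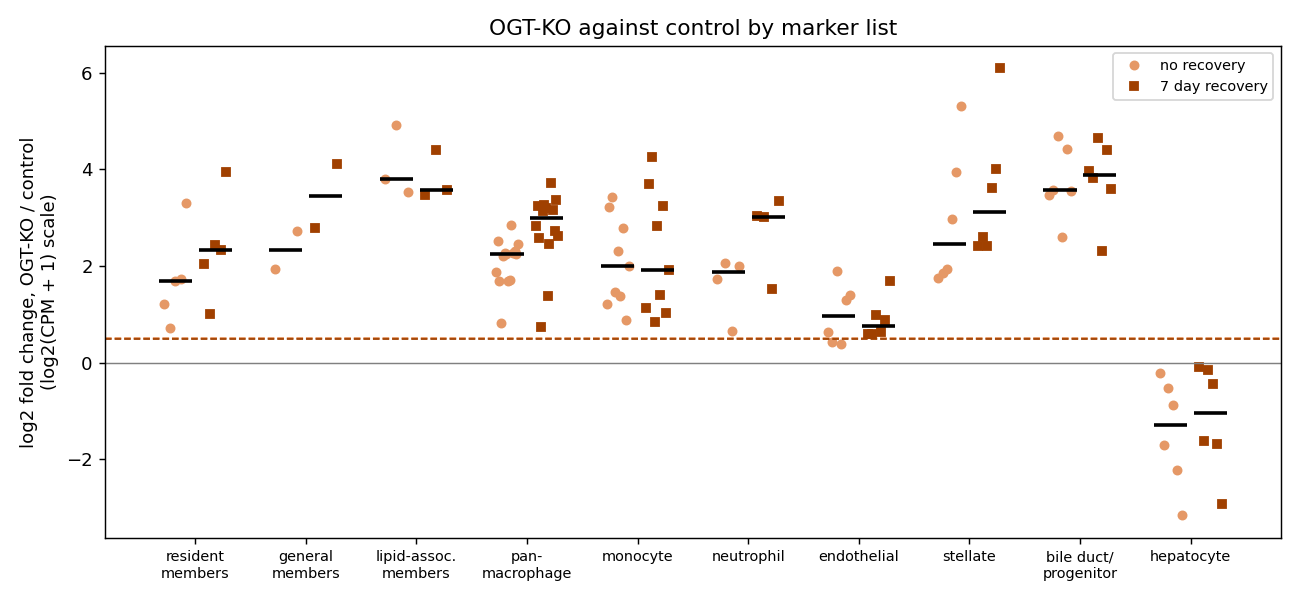
Log2 fold change of OGT-KO over control on the log2(CPM + 1) scale for each gene of 10 marker lists, with circles for no recovery, squares for 7 days, black bars for list medians and dashed lines for the median of all genes averaging at least 10 CPM (0.51 and 0.48). The resident members lie lowest among the 3 groups of members, with medians of 1.68 and 2.34, and the hepatocyte markers lie below 0.

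How the resident markers stood against the others was next asked within each library, as reads of a marker per read of Adgre1. Such a ratio does not depend on how libraries are scaled to one another. In the control library with no recovery there were 7.66 reads of Clec4f per read of Adgre1 (6.64 to 8.88), and in the OGT-KO library 4.38 (4.08 to 4.70). After 7 days there were 8.16 (6.35 to 10.6) in the control and 4.05 (3.72 to 4.41) in the OGT-KO library. The Clec4f share was thus 1.75 times lower with no recovery and 2.02 times lower after 7 days in the OGT-KO library.

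Timd4 was the marker whose ratio was reduced furthest. Reads of Timd4 per read of Adgre1 were 0.561 in the control and 0.239 in the OGT-KO library with no recovery, and 0.551 and 0.161 after 7 days. On the log2 scale the difference was -1.23 (-1.63 to -0.83) and -1.77 (-2.44 to -1.08). For Vsig4 it was -0.29 (-0.58 to -0.01) and -0.49 (-0.96 to -0.03), and for Cd5l -0.28 (-0.52 to -0.05) and -0.72 (-1.12 to -0.33). With this denominator 4 of the 5 resident markers were lower in the OGT-KO libraries, beyond counting error at both times.

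Marco went the other way. Its reads per read of Adgre1 were 1.10 in the control and 2.90 in the OGT-KO library with no recovery, and 1.01 and 2.30 after 7 days, which is 1.39 higher (1.10 to 1.69) and 1.18 higher (0.66 to 1.70) on the log2 scale. Lyz2 was 0.73 higher (0.49 to 0.96) and 1.10 higher (0.68 to 1.50). Trem2 was 2.79 higher (2.09 to 3.56) and 1.77 higher (0.82 to 2.86), and Gpnmb 3.98 higher (3.27 to 4.77) and 3.36 higher (2.15 to 4.87). Cd9 was 1.59 higher (1.31 to 1.86) with no recovery and 0.56 higher (0.14 to 0.96) after 7 days.

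Other denominators were also used. Relative to the summed reads of C1qa, C1qb and C1qc, which encode the chains of complement C1q made by tissue macrophages, Clec4f was at -1.04 and -1.19, Timd4 at -1.46 and -1.95, Vsig4 at -0.53 and -0.67, and Cd5l at -0.52 and -0.90 on the log2 scale, while Marco was at 1.16 and 1.0. Csf1r, the receptor for the growth factor that macrophages need, kept its ratio to Adgre1 within counting error, with differences of -0.13 (-0.38 to 0.10) and -0.22 (-0.63 to 0.17). Relative to Csf1r itself, Clec4f was at -0.67 and -0.79, Timd4 at -1.10 and -1.55, and Cd5l at -0.15 (-0.27 to -0.02) and -0.50 (-0.70 to -0.30), but Vsig4 was within counting error at both times, at -0.16 (-0.36 to 0.04) and -0.27 (-0.59 to 0.05), so that 3 of the 5 resident markers were then lower beyond it. Marco was at 1.53 and 1.40. The median of the resident markers was -0.16 and -0.50 with Csf1r, nearer to 0 than with Adgre1. With Cd68, a lysosomal protein of phagocytes, as the denominator, the median of the resident markers was -0.87 and -1.13, further from 0 than the -0.29 and -0.72 with Adgre1. Cd68 itself was at 0.57 (0.28 to 0.87) and 0.41 (-0.09 to 0.90) relative to Adgre1. Relative to Cd68, Lyz2 was at 0.15 (-0.07 to 0.37) and 0.69 (0.33 to 1.05), and Cd9 at 1.01 (0.75 to 1.27) and 0.15 (-0.22 to 0.51). Marco, Trem2 and Gpnmb stayed higher beyond counting error, as did Lyz2 and Cd9 relative to Csf1r or the C1q sum.

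**Figure D3:**
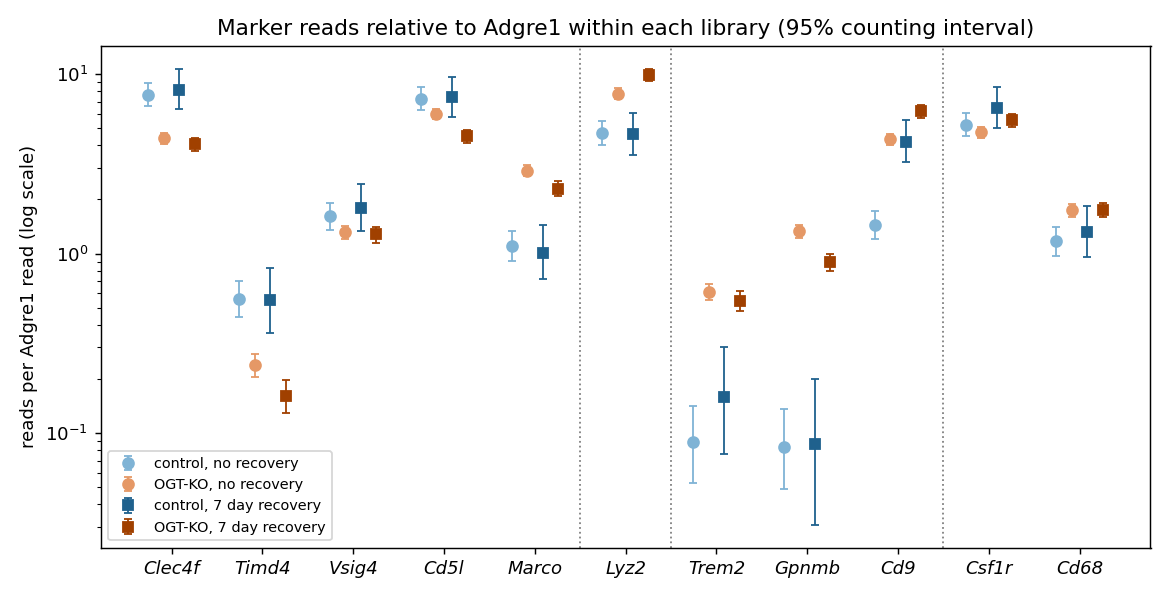
Reads of each marker per read of Adgre1 in each of the 4 libraries (log axis, bars for the 95% counting interval), with Csf1r and Cd68 at the right for reference. Clec4f, Timd4, Vsig4 and Cd5l lie lower in the OGT-KO libraries (orange, brown) than in the control libraries (blue) at each time, and Marco, Lyz2, Trem2, Gpnmb and Cd9 lie higher.

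The next comparison was of 7 days of recovery with none. In the control libraries 7 of the 10 markers were at least 2-fold lower after 7 days and none was at least 2-fold higher. Of all listed genes, 0.964% were at least 2-fold lower, and of those averaging at least 10 CPM 0.960% were lower and 0.245% higher. The 7 were the 5 resident markers, Adgre1 and Lyz2. Trem2 at 0.894 CPM and Gpnmb at 0.847 CPM with no recovery were too low to be called lower on the log2(CPM + 1) scale. Their absence from the 7 is thus no result about them. With a pseudocount of 0.1 the count was 8, with Gpnmb at -1.24. Marco was 3.17 times lower (2.42 to 4.20), Timd4 2.97 times (2.04 to 4.39), Cd5l 2.87 times (2.59 to 3.17), Clec4f 2.74 times (2.49 to 3.02) and Vsig4 2.61 times (2.12 to 3.23). Adgre1 was 2.91 times lower (2.21 to 3.88) and Lyz2 2.96 times (2.61 to 3.37). The counting intervals of these 7 all overlapped, and relative to Adgre1 none of the other 6 changed beyond counting error. The median of all genes averaging at least 10 CPM was -0.05 on the log2 scale.

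Of the lipid-associated markers in the control livers, Cd9 was level, with a ratio of 1.0 (0.850 to 1.18). Relative to Adgre1, Cd9 was therefore 1.54 higher (1.07 to 2.02) on the log2 scale after 7 days. Trem2 was 1.62 times lower (0.734 to 3.77) and Gpnmb 2.82 times lower (1.07 to 8.67), on 11 and 6 reads in the later library, so that a change of Trem2 was not detectable at this depth.

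In the OGT-KO libraries only Gpnmb was at least 2-fold lower after 7 days on the log2(CPM + 1) scale, at -1.02, where 0.791% of all listed genes were, and of those averaging at least 10 CPM 0.435% were lower and 1.04% higher. Its ratio was 2.07 times lower (1.87 to 2.28). Timd4 was 2.06 times lower (1.63 to 2.61) but at -0.91 on that scale, which understates the change of low genes. Cd5l was 1.85 times lower (1.77 to 1.93), Marco 1.75 times (1.64 to 1.86), Trem2 1.56 times (1.37 to 1.78), Clec4f 1.50 times (1.43 to 1.58), Vsig4 1.43 times (1.31 to 1.56) and Adgre1 1.39 times (1.26 to 1.54). Lyz2 was 1.09 times lower (1.06 to 1.13), and Cd9 did not differ beyond counting error, with a ratio of 1.03 (0.983 to 1.07). Relative to Adgre1, Timd4 was at -0.57 (-0.94 to -0.20), Cd5l at -0.41 (-0.57 to -0.25), Marco at -0.33 (-0.50 to -0.16) and Gpnmb at -0.57 (-0.78 to -0.37), whereas Lyz2 was at 0.35 (0.20 to 0.50) and Cd9 at 0.51 (0.35 to 0.67). Clec4f, Vsig4 and Trem2 kept their ratio to Adgre1 within counting error.

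**Figure D4:**
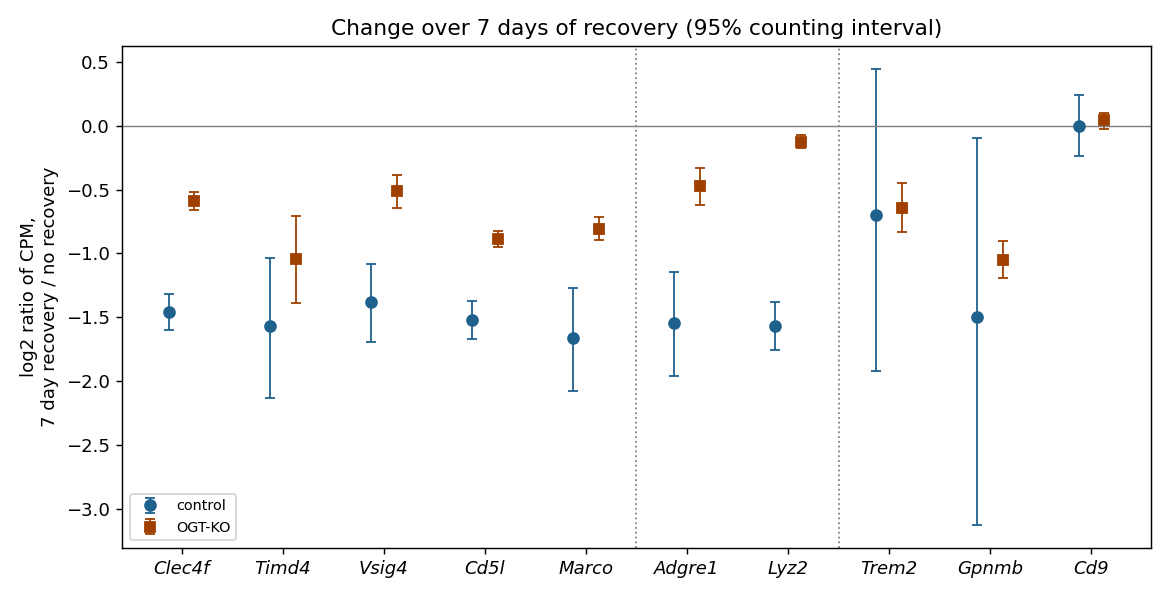
Log2 ratio of CPM after 7 days to CPM with no recovery for each marker, blue circles for control and brown squares for OGT-KO, bars for the 95% counting interval. The 5 resident markers, Adgre1 and Lyz2 lie lower in control than in OGT-KO, though the bars of Timd4 overlap. Cd9 lies at 0 in both, and the wide bars of Trem2 and Gpnmb in control come from 6 to 19 reads a library.

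Because the genotype contrasts at the 2 times and the recovery contrasts share libraries, the difference between the genotype contrasts is one number for each gene. It was 0.84 for Clec4f, 0.75 for Vsig4, 0.63 for Marco, 0.60 for Cd5l and 0.29 for Timd4 on the log2 scale, with the contrast after 7 days the larger. It was 0.85 for Adgre1 and 1.38 for Lyz2, the largest of the 10. For the lipid-associated markers it was -0.32 for Trem2, -0.51 for Gpnmb and 0.04 for Cd9. The scale understates the change of low genes, and Trem2 and Gpnmb had few control reads. As ratios of CPM neither contrast was smaller after 7 days, at 28.2 and then 29.4 for Trem2 and 64.7 and then 88.2 for Gpnmb. The counting intervals at the 2 times overlapped for both genes. The median difference on the log2(CPM + 1) scale was 0.63 for the resident, 1.12 for the general and -0.32 for the lipid-associated markers, the last with this limit. It was 0.03 for all genes averaging at least 10 CPM. With 1 library in each condition this difference could not be tested.

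The levels of different genes were compared per kilobase of the longest principal coding transcript. In the control library with no recovery the order ran from Cd5l at 36.0 CPM per kilobase and Lyz2 at 35.8, which did not differ beyond their counting intervals, through Clec4f at 31.2, Cd9 at 11.8 and Vsig4 at 11.3, the last pair again overlapping. Marco followed at 5.77, Adgre1 at 3.11 and Timd4 at 2.60, of which Adgre1 and Timd4 overlapped, then Trem2 at 0.821 and Gpnmb at 0.229. In the control library after 7 days, Cd5l at 12.6, Lyz2 at 12.1, Cd9 at 11.8 and Clec4f at 11.4 CPM per kilobase each overlapped the next, and Gpnmb was again last, at 0.0812.

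In the OGT-KO library with no recovery Lyz2 led with 243 CPM per kilobase, followed by Cd9 at 146, Cd5l at 121, Clec4f at 73.0, Marco at 62.0 and Vsig4 at 37.7. Trem2 was at 23.2, Gpnmb at 14.8, Adgre1 at 12.7 and Timd4 last at 4.53, and no neighbours overlapped. After 7 days the first 7 genes kept this order, from Lyz2 at 223 to Trem2 at 14.9 CPM per kilobase, and Adgre1 at 9.16 came before Gpnmb at 7.16 and Timd4 at 2.20. The last place thus belonged to Gpnmb in both control libraries and to Timd4 in both OGT-KO libraries.

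Other genes of the same cells were read from lists of known markers. Of 14 further macrophage genes, 13 were at least 2-fold higher in the OGT-KO library at both times, with medians of 2.25 and 2.98 on the log2 scale. The exception was Mertk, a receptor for dying cells, at 0.83 and 0.74, named here after its values were seen. Csf1r was at 52.4 CPM in the control and 195 CPM in the OGT-KO library with no recovery, and at 22.2 CPM and 164 CPM after 7 days. Ctss, a lysosomal protease, was higher by 2.84 and 3.71 on the log2 scale, and Cybb, the catalytic chain of the phagocyte oxidase, by 2.25 and 3.36. In control livers 9 of the 14 were at least 2-fold lower after 7 days and in OGT-KO livers none was, with medians of -1.14 and -0.39, and for the 5 resident members the medians were -1.42 and -0.80.

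Other genes known from resident Kupffer cells, 10 in all, had smaller medians than the members. Of these, 7 were at least 2-fold higher in the OGT-KO library with no recovery and 7 after 7 days, 6 of them at both, and the medians were 1.19 and 1.35. Hmox1, which breaks down haem, was at 20.4 CPM in the control and 100 CPM in the OGT-KO library with no recovery, and at 16.0 CPM and 71.5 CPM after 7 days. Spic, a factor of red pulp and haem-handling macrophages, was higher by 1.63 and 1.32 on the log2 scale. Nr1h3, which encodes the lipid sensor LXR alpha and is also made by hepatocytes, was at 109 CPM in the control and 93.5 CPM in the OGT-KO library with no recovery, a log2 fold change of -0.22, and at -0.26 after 7 days.

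The other 14 genes of lipid-associated macrophages had 10 members at least 2-fold higher at each time, 9 of them at both, with medians of 1.74 and 1.62. Mmp12, the macrophage elastase, was at 0.470 CPM in the control and 70.5 CPM in the OGT-KO library with no recovery, and at 0.601 CPM and 26.0 CPM after 7 days, so that like Gpnmb it was lower after 7 days in the OGT-KO livers, by -1.40 on the log2 scale. Cd63, a lysosomal tetraspanin, was at 3.72 CPM and 182 CPM with no recovery and at 3.35 CPM and 132 CPM after 7 days. Spp1, which encodes osteopontin and is also made by bile duct cells, was higher by 4.54 and 4.55. Apoe, which hepatocytes also make in quantity, was at 22676 CPM and 22839 CPM with no recovery, a log2 fold change of 0.01.

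Trem2 signals through the adaptor Tyrobp and the kinase Syk. Of 6 genes of this pathway, 5 were at least 2-fold higher in the OGT-KO library at both times. Tyrobp was at 9.55 CPM in the control and 54.1 CPM in the OGT-KO library with no recovery, and at 2.95 CPM and 39.4 CPM after 7 days. Its log2 fold change of 2.38 and 3.35 was below that of Trem2, at 3.79 and 3.47. Over recovery in control livers Tyrobp was at -1.42 and Syk at -1.60, beside a median of -1.42 for the resident markers. Plcg2, a phospholipase downstream of Syk, was higher by 2.38 and 2.94.

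Genes of blood monocytes were at low levels in control livers. The 9 listed of 10 (S100a4 was not listed) summed to 7.29 CPM in the control and 75.7 CPM in the OGT-KO library with no recovery, and to 5.71 CPM and 101 CPM after 7 days, and Chil3 was at 0 reads in the control library with no recovery. At each time 8 of the 9 were at least 2-fold higher. Ccr2, the chemokine receptor that guides monocytes out of the marrow, was at 0.706 CPM and 15.0 CPM with no recovery and at 0.751 CPM and 21.8 CPM after 7 days. Cx3cr1, the fractalkine receptor, was at 0.753 CPM and 17.7 CPM with no recovery and at 0.801 CPM and 33.6 CPM after 7 days. Over recovery none of the 9 was at least 2-fold lower in either genotype. In the control library with no recovery all but Plac8, at 3.86 CPM, were under 1 CPM. They were too low to be called lower on the log2(CPM + 1) scale, which also compresses the control median. The list medians were 0.01 in control and 0.15 in OGT-KO livers, while the resident medians were -1.42 and -0.80. What part monocytes had in the levels of Lyz2 and the lipid-associated markers was not tested.

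Growth factors and a chemokine that act on macrophages were also higher. Csf1, the main growth factor of macrophages, was at 15.5 CPM in the control and 43.5 CPM in the OGT-KO library with no recovery, and at 11.4 CPM and 52.6 CPM after 7 days. Il34, the other ligand of the same receptor, was higher by 1.33 and 1.19 on the log2 scale. Ccl2, the ligand of Ccr2, was at 3.25 CPM and 14.3 CPM with no recovery and at 0.451 CPM and 13.2 CPM after 7 days. Csf2, the fourth of this list, was not listed. Of 12 transcription factors of macrophages, 5 were at least 2-fold higher at each time. Spi1, which encodes PU.1, was at 5.41 CPM and 29.8 CPM with no recovery and at 2.05 CPM and 22.3 CPM after 7 days, and Irf8 was higher by 2.00 and 2.50.

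Markers of the other cells of the liver moved as well, and beside the members their lists read as follows. Stellate cell markers (Lrat, Reln, Des, Pdgfrb, Acta2 and Col1a1), none at 0, summed to 87.1 CPM in the control and 1248 CPM in the OGT-KO library with no recovery, and to 63.2 CPM and 1599 CPM after 7 days, all 6 at least 2-fold higher at both times. Most of the OGT-KO sums was Col1a1, at 875 CPM and 1192 CPM. The log2 fold changes of the list ran from 1.76 to 5.32 with no recovery and from 2.41 to 6.09 after 7 days, with medians of 2.45 and 3.12. Endothelial markers (Stab2, Clec4g, Lyve1, Kdr, Pecam1 and Aqp1) summed to 216 CPM and 424 CPM with no recovery and to 149 CPM and 310 CPM after 7 days, none at 0, with medians of 0.96 and 0.76. The resident Kupffer markers, at medians of 1.68 and 2.34, thus lay between the endothelial and the stellate lists. Dendritic cell markers summed to 3.58 CPM and 11.2 CPM with no recovery and to 3.20 CPM and 10.9 CPM after 7 days, with Flt3 at 0 in the control library after 7 days. T and natural killer cell markers, of which 2 of 5 were listed, summed to at most 3.63 CPM in any library, with Cd8a at 0 in the control library after 7 days. B cell markers, 2 of 3 listed, summed to at most 2.58 CPM. Platelet markers, 2 of 4 listed, summed to between 3.48 CPM and 10.9 CPM. The part of these cells in the marker values was not tested.

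The genes whose pattern over the 4 libraries was most like that of the resident and lipid-associated members were found by the distance between profiles of log2(CPM + 1), each centred on its own mean. The 5 nearest were picked from all other genes averaging at least 10 CPM. Nearest to the mean of the 5 resident members were Wfdc17 at a distance of 0.217, Myh11 at 0.266, Sdc3 at 0.282, Nfam1 at 0.332 and Vsir at 0.335. The members themselves lay at 0.139 (Cd5l), 0.180 (Vsig4), 0.424 (Clec4f), 1.20 (Timd4) and 1.59 (Marco). The 5 genes were nearer to the group mean than 3 of its own members, but they were picked for being near. Nearest to the mean of the 3 lipid-associated members were Basp1 at 0.0800, Plxna3 at 0.161, S100a6 at 0.195, Vcam1 at 0.253 and Acta2 at 0.279, and Trem2 itself lay at 0.322, Cd9 at 0.594 and Gpnmb at 0.809. These last 5 neighbours, and also Wfdc17, Myh11 and Nfam1, were under 10 CPM in both control libraries. They thus passed the minimum only through the OGT-KO libraries, as Trem2 and Gpnmb did. The distances describe 4 libraries and were not tested.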

How the data were processed

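Bulk mRNA-seq libraries of mouse liver, 1 for each of 4 groups, were compared. The authors deposited 1 table of CPM for 13903 genes. The submitters' processing notes name STAR, DESeq2 and GRCm39 without versions or roles. The deposited table is named for DESeq2 normalization, but each column sums to 1000000, and 100.0% of values were whole multiples of 1 read (within 0.05 reads), so the reads were recovered. The smallest level the depth can show, taken as 3 reads, was 0.131 to 0.150 CPM. Groups were taken from the labels.

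Fold changes were differences of log2(CPM + 1), called at 2-fold. This scale understates the change of low genes. CPM intervals are exact Poisson, and intervals of ratios are exact conditional (Clopper-Pearson), both at 95% and for counting error only, and reads without molecular identifiers are not independent molecules. With 1 library per group no test between conditions was made. Background shares were taken over all 13903 genes, and medians of all genes over the 8963 with a mean of at least 10 CPM. Gene positions and lengths came from GENCODE M21 (GRCm38), matched by identifier for 13893 of the genes, and were not converted from GRCm39. Named genes were the 10 members, Ogt, Csf1r, Cd68, C1qa, C1qb and C1qc, up to 3 genes in either direction from each list (those with the most extreme mean genotype contrast, averaging at least 1 CPM), from which examples were taken, and the 5 nearest profiles. Lyz1 was added after its values were seen. The members and lists were chosen with earlier results of these data known. Alternatives were a pseudocount of 0.1 or 10, scaling by median ratio or upper quartile, no filter, a mean of at least 50 CPM, a 4-fold threshold, other denominators, and an exact binomial test of the reads, which compares libraries and not conditions. The steps were tested on simulated data. Python 3.11, numpy 2.4.6, pandas 2.3.3, scipy 1.17.1 and matplotlib 3.10.9 were used.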

Additional observations from a re-analysis of the deposited data

Results flagged for a closer look

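Of the 59 genes of the lists that could be named by the rule, the members included, 5 moved in opposite directions over recovery in control and OGT-KO livers, each beyond counting error, and 12 of all 117 listed genes of the lists did. The differences between the groups were not tested, since each condition is 1 library. Csf1, the growth factor of macrophages, was at -0.41 on the log2 scale in control and 0.27 in OGT-KO livers. The neutrophil genes Csf3r and S100a8 were at -0.90 and -0.51 in control and at 0.44 and 0.80 in OGT-KO livers. Col1a1, the fibrillar collagen of stellate cells, was at -0.33 in control and 0.45 in OGT-KO livers. Apoe was at 0.04 in control and -0.19 in OGT-KO livers over recovery, and its genotype contrast was 0.01 with no recovery and -0.22 after 7 days. Ogt, which is in no list, was at -0.21 in control and 0.48 in OGT-KO livers over recovery, and its genotype contrast was -0.22 and then 0.47. None of the 10 marker genes did so.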

How the results depend on the processing

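Of 80 genotype log2 fold changes of the members recomputed under the alternatives, none changed sign and 4 crossed the 2-fold threshold: Clec4f with no recovery at 0.50 (median ratio) and 0.74 (upper quartile), Vsig4 with no recovery at 0.98 (median ratio), and Timd4 after 7 days at 1.29 (pseudocount 0.1). With a 4-fold threshold, 5 members in place of 9 were higher in OGT-KO with no recovery. In control recovery the 7 members that were at least 2-fold lower became 3 with a pseudocount of 10 and 0 at 4-fold. With a pseudocount of 0.1 they became 8, because Gpnmb was then at -1.24. In OGT-KO recovery the 1 member became 0 with median-ratio or upper-quartile scaling, a pseudocount of 10 or a 4-fold threshold, and 2 with a pseudocount of 0.1. The median difference between the genotype contrasts was 0.62 over the members and 0.12 with a pseudocount of 10. Relative to Cd68 in place of Adgre1, the median of the resident markers was -0.87 in place of -0.29 with no recovery and -1.13 in place of -0.72 after 7 days. Relative to Csf1r it was -0.16 and -0.50, and Vsig4 came within counting error at both times. Relative to Cd68, Lyz2 with no recovery and Cd9 after 7 days came within counting error. The larger pseudocount compresses low values by construction, and elsewhere the cause was not tested. With median-ratio scaling the numbers of all compared genes at least 2-fold higher and lower were 935 and 1381 with no recovery and 1037 and 1055 after 7 days, in place of 2185 and 510, and 2050 and 383. No paired analysis was possible because each group is 1 library, and for the same reason no replicate could be left out.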
